A study of Danio rerio with 12 samples.

Results

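The oxidative phosphorylation genes were taken from the expression table of adult zebrafish eyes by symbol. Subunits of NADH dehydrogenase (complex I), succinate dehydrogenase (complex II), the cytochrome bc1 complex (complex III), cytochrome c oxidase (complex IV) and ATP synthase (complex V) were included. Assembly factors and inhibitors whose symbols begin in the same way were kept in the set and counted apart from the subunits. The rule found 119 of the 25432 genes in the table, of which 106 are encoded in the nucleus and 13 in mitochondrial DNA.

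RNA sequencing was performed on 6 eyes of *akr7a3*-/- and 6 eyes of *akr7a3*+/+ zebrafish. In the *akr7a3*-/- line, CRISPR/Cas9 had left an insertion in exon 1 of the gene, with a premature stop codon as its result. Both genotypes carry Tg(fli1:EGFP), a transgene that labels blood vessels with a green fluorescent protein, and the age of the adults is not given in the sources used here. Values are FPKM, fragments on a gene scaled to its length and to the fragments of the eye, so that levels can be set beside each other between genes. Genotypes were compared with limma on log2(FPKM + 0.5), and a gene is called changed at a Benjamini-Hochberg adjusted p under 0.05 over all 18473 genes tested. Nothing in the labels says that the eyes of a genotype came from separate animals, so that the p-values measure the spread between these samples.

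Complexes I to IV form the respiratory chain of the inner mitochondrial membrane, where electrons from NADH and succinate are passed to oxygen and protons are pumped, and complex V uses the proton gradient to make ATP. Complex II is encoded entirely in the nucleus. The other complexes combine nuclear subunits with subunits encoded in mitochondrial DNA, so that expression of both genomes is needed for their assembly. Photoreceptors, eye muscles and the pigment epithelium are known for their many mitochondria.

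In the mutant eyes, nuclear members were called lower more often than all genes. The 1 mitochondrial member called higher is a share near that of all genes called higher. Of 104 nuclear genes tested, 18 fell in *akr7a3*-/- eyes and 0 rose, while of 13 mitochondrial genes 1 rose and 0 fell (limma, adjusted p under 0.05). Over all genes, 5.77% were called lower and 5.78% were called higher, together 11.5%, against 17.3% of the nuclear members called lower and 7.69% of the mitochondrial members called higher. The median log2 fold change was -0.16 over the nuclear members and 0.26 over the mitochondrial members, beside -0.01 over all genes tested. Of the nuclear members, 90 had a log2 fold change below 0, which is 86.5%, beside 51.6% of all genes. At an unadjusted p under 0.05, 39 nuclear members were lower and 0 were higher, and 4 mitochondrial members were higher and 0 were lower. The 39 are 37.5% of the nuclear members, beside 13.4% of all genes lower. The 4 of 13 mitochondrial members stand beside 12.8% of all genes higher. With limma's voom on reads recovered from the FPKM values, 16 nuclear members were called lower and 0 higher, and 4 mitochondrial members were called higher and 0 lower. In that fit 17.1% of all members tested were called, 13.7% lower, beside 11.5% of all genes called and 5.61% called lower.

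The count of called members depended on single eyes. Of 19 called members, 7 kept the call in all 12 fits that left out 1 eye, namely *atp5if1a*, *atp5if1b*, *ndufaf6*, *ndufb7*, *ndufb8*, *sdha* and *atp5meb*. The other 12 lost it in at least 1 such fit. The count was 12 without *akr7a3*-/- eye 1, 10 without *akr7a3*-/- eye 4, 9 without *akr7a3*-/- eye 8 and 9 without *akr7a3*-/- eye 9. It was 9 without *akr7a3*+/+ eye 3, 10 without *akr7a3*+/+ eye 4 and 10 without *akr7a3*+/+ eye 7. These 7 fits had the lowest counts of the 12. In them 8.22% to 10.2% of all genes and 7.69% to 10.3% of the members tested were called. The share of members was below that of all genes in each of these 7 except the fit without *akr7a3*-/- eye 1. In the same 7 fits 7.69% to 10.3% of the members and 4.01% to 5.35% of all genes were called lower. In the remaining fits that left out 1 eye, 11.1% to 20.5% of the members and 9.87% to 11.0% of all genes were called. There the share of members was above that of all genes in each fit. Called lower in the remaining fits were 10.3% to 19.7% of the members and 4.95% to 5.19% of all genes. The directions of both medians were the same in all 12 of these fits, with the nuclear median between -0.21 and -0.13 and the mitochondrial median between 0.22 and 0.32.

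The reads of each eye, worked out from the steps of its FPKM values, ran from 22237970 to 35016388 in *akr7a3*-/- eyes and from 21194609 to 34935342 in *akr7a3*+/+ eyes. The targeted gene *akr7a3* lay between 0.267 and 0.414 FPKM in *akr7a3*-/- eyes and between 1.35 and 2.65 FPKM in *akr7a3*+/+ eyes, with a log2 fold change of -1.56 (SE 0.14, adjusted p 2.66e-05, limma), and no eye went against its label. The size of this fold change depends on the pseudocount, at -2.23 with 0.1 and -1.16 with 1, and voom gave -2.55. Among all genes tested, 5.78% were called higher and 5.77% lower, for comparison with the marker counts that follow. Of 35 photoreceptor markers tested, 8 rose and 7 fell, larger shares in both directions. Their summed level was higher in every mutant eye, at 47324 to 55370 FPKM, against 31474 to 47094 FPKM in *akr7a3*+/+ eyes. The largest part of this sum was *rho*, which averaged 25140 FPKM in mutant eyes and 18011 FPKM in *akr7a3*+/+ eyes and was not called (adjusted p 0.287, limma). Of 26 lens markers 0 rose and 1 fell, 2 other lens genes were at 0 in every eye, and the summed lens level ranged from 1165 to 26253 FPKM in *akr7a3*-/- eyes, lowest in eye 1, against 15496 to 30788 FPKM in *akr7a3*+/+ eyes. Of 9 haemoglobin and other red cell genes 1 rose and 0 fell, with sums of 963 to 1849 FPKM in mutant eyes against 186 to 1494 FPKM. The gene that rose was *slc4a1a* (adjusted p 0.0436, limma), which is not a haemoglobin gene, and no haemoglobin gene of the list was called. Of 11 pigment epithelium and pigment genes 0 rose and 2 fell, with sums of 277 to 408 FPKM in mutant eyes against 335 to 459 FPKM. Whole eyes were sequenced, so that fewer cells of a type and less RNA per cell cannot be told apart.

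Muscle markers moved in the same direction as the nuclear members. Of 26 tested muscle genes 10 fell and 0 rose, beside 5.77% of all genes called lower, with a median log2 fold change of -0.55. Their summed level was 982 to 1283 FPKM in *akr7a3*-/- eyes, with a median of 1202, and 1128 to 2654 FPKM in *akr7a3*+/+ eyes, with a median of 1610. The ranges overlapped because *akr7a3*+/+ eye 6, at 1128 FPKM, lay among the mutant eyes, and no gene of the list was at 0 in every eye. The part of muscle, photoreceptor, lens, blood and pigment cells in the results below was not tested.

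**Figure D1:**
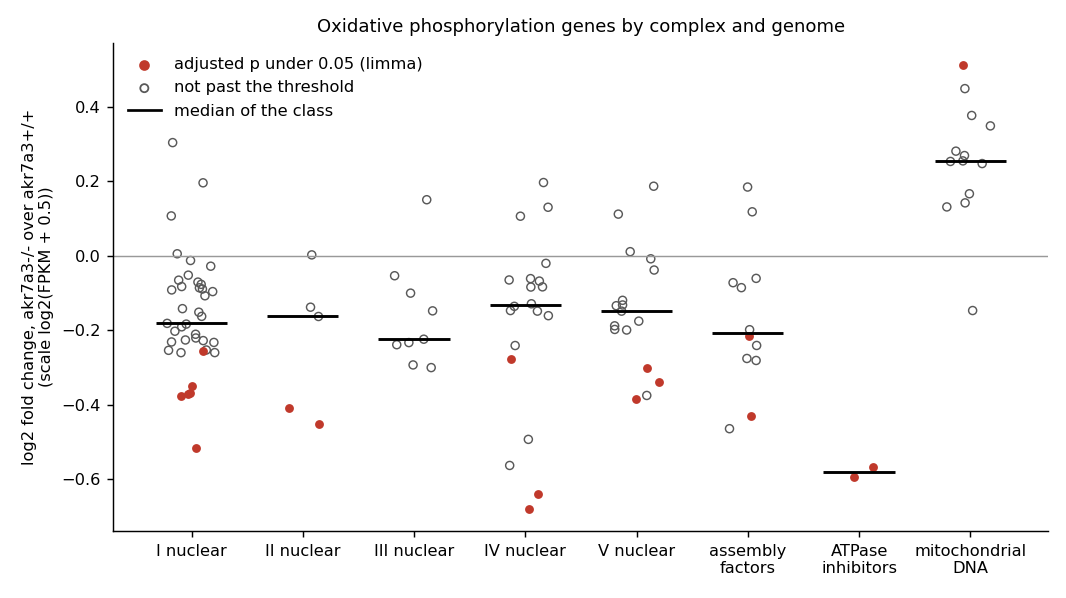
Log2 fold change of each tested member on the scale log2(FPKM + 0.5), *akr7a3*-/- over *akr7a3*+/+ (n = 6 eyes each), by complex for nuclear subunits and apart for assembly factors, ATP synthase inhibitors and genes of mitochondrial DNA. Complexes were assigned by symbol, filled points passed an adjusted p of 0.05 and lines are medians. The nuclear classes have medians below 0, while 12 of 13 mitochondrial genes lie above 0.

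Averaged over all 12 eyes, each of the 13 mitochondrial genes had a higher FPKM than any nuclear member. The complex IV core subunit gene *mt-co1*, which encodes the subunit that reduces oxygen, averaged 14798 ± 1062 FPKM in *akr7a3*-/- eyes and 12177 ± 907 FPKM in *akr7a3*+/+ eyes (± is the SD, n = 6 each throughout). The lowest of the mitochondrial genes, *mt-atp8* of complex V, averaged 641 ± 166 FPKM in mutant eyes and 488 ± 96.7 FPKM in *akr7a3*+/+ eyes. The highest nuclear member, the ATP synthase beta subunit gene *atp5f1b*, was at 550 ± 68.0 FPKM in mutant eyes and 552 ± 63.7 FPKM in *akr7a3*+/+ eyes, and so above *mt-atp8* in the *akr7a3*+/+ eyes. Libraries were made from polyadenylated RNA, and mitochondrial mRNAs have short tails, so that the level of mitochondrial relative to nuclear genes depends on the library method.

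The only mitochondrial gene past the threshold was *mt-nd3*, which encodes a small membrane subunit of complex I. Its lowest, median and highest values were 1596, 1929 and 2452 FPKM in *akr7a3*-/- eyes, and 1067, 1464 and 1539 FPKM in *akr7a3*+/+ eyes. Every mutant eye was above every *akr7a3*+/+ eye. The mean was 1.43-fold higher in mutant eyes, and the log2 fold change was 0.51 (SE 0.14, adjusted p 0.0346, limma with Benjamini-Hochberg). The call was lost without *akr7a3*-/- eyes 1, 8 or 9 and without *akr7a3*+/+ eyes 3, 6 or 7, left out singly, where the log2 fold change stayed between 0.44 and 0.57 over all 12 fits.

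The genotypes did not overlap in *mt-co3* either, a core subunit gene of complex IV. It was 7736, 9542 and 10669 FPKM (lowest, median and highest) in *akr7a3*-/- eyes and 6069, 7011 and 7337 FPKM in *akr7a3*+/+ eyes. Its log2 fold change of 0.45 (SE 0.18) did not pass the test, with an adjusted p of 0.128 (limma). Of all genes tested, 3.55% had mutant values wholly above the *akr7a3*+/+ values, and among the mitochondrial genes these were 2 of 13.

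The call on *mt-co3* depended on how the spread of highly expressed genes was modelled. When limma was run without a variance trend, *mt-co3* (adjusted p 0.00600), *mt-nd3* (0.0185), *mt-co1* (0.0250) and *mt-nd1* (0.0396) passed. When limma's voom was run on the recovered reads, the adjusted p was 0.00511 for *mt-co3*, 0.0148 for *mt-nd3*, 0.0270 for *mt-co1* and 0.0353 for *mt-nd1*. Both settings were chosen after seeing the data.

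The other complex I genes of mitochondrial DNA, which form the proton-pumping membrane arm together with *mt-nd3*, did not pass. The gene *mt-nd1* was 2293, 3202 and 3386 FPKM (lowest, median and highest) in *akr7a3*-/- eyes and 2154, 2375 and 2619 FPKM in *akr7a3*+/+ eyes, with a log2 fold change of 0.35 (SE 0.14, adjusted p 0.121, limma). Mutant eye 5 was the lowest mutant eye and lay among the *akr7a3*+/+ eyes. The log2 fold changes of *mt-nd2*, *mt-nd4*, *mt-nd4l* and *mt-nd5* were 0.14, 0.26, 0.17 and 0.25, with adjusted p from 0.169 to 0.533, and all 4 overlapped between the genotypes.

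The gene *mt-nd6* was the only mitochondrial member with a log2 fold change below 0. It is the only one of the 13 that is transcribed from the light strand of mitochondrial DNA. Its lowest, median and highest values were 993, 1148 and 1338 FPKM in *akr7a3*-/- eyes, and 976, 1355 and 1558 FPKM in *akr7a3*+/+ eyes, and the log2 fold change was -0.15 (SE 0.14, adjusted p 0.547, limma). As a share of the summed FPKM of the 13 genes, *mt-nd6* made up 1.66% to 2.04% in mutant eyes and 2.06% to 2.88% in *akr7a3*+/+ eyes. These shares did not overlap, although *akr7a3*+/+ eyes 1 and 2, at 2.06% and 2.12%, lay close to the highest mutant eye. A share also falls when the other genes of the sum rise. The share of *mt-nd3* overlapped, at 2.91% to 3.66% in mutant eyes and 2.27% to 3.21% in *akr7a3*+/+ eyes. The strand setting of the read counting is not given in the sources used here, and without it reads of *mt-nd6* and of the opposite strand cannot be told apart.

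The remaining mitochondrial genes had log2 fold changes above 0 that did not pass. For *mt-cyb*, the core subunit gene of complex III, the difference was 0.27 (adjusted p 0.312), and for *mt-co1* and *mt-co2* of complex IV it was 0.28 (0.438) and 0.25 (0.441). The complex V genes *mt-atp6* and *mt-atp8* had log2 fold changes of 0.13 (adjusted p 0.705) and 0.38 (0.223) by the same limma test. In mitochondrial DNA *mt-atp8* overlaps *mt-atp6*, as *mt-nd4l* does *mt-nd4*, and how reads on both genes were counted is not given.

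**Figure D2:**
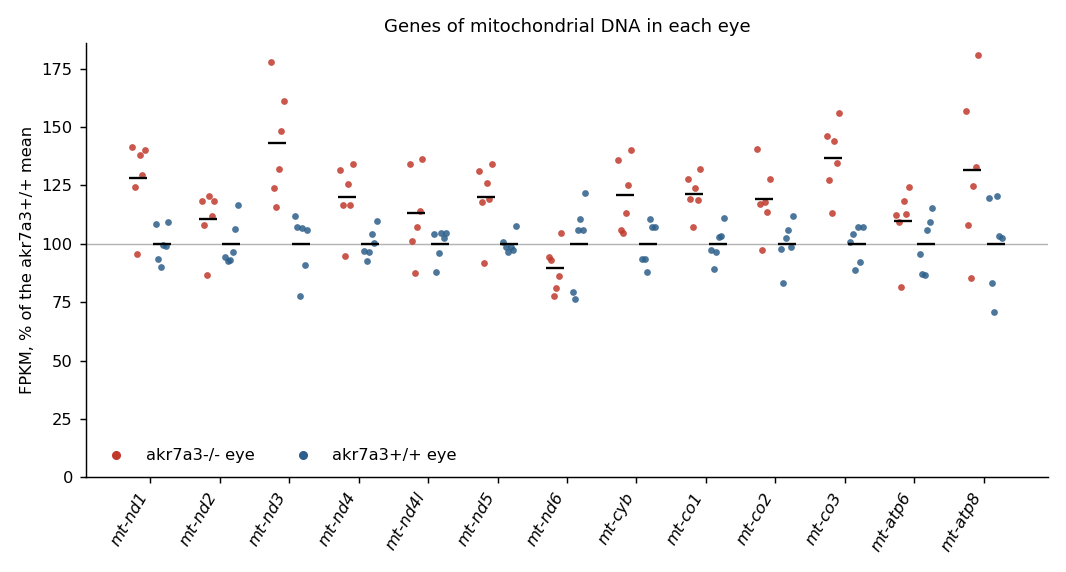
FPKM of the 13 genes of mitochondrial DNA in each eye, as a percentage of the *akr7a3*+/+ mean of that gene, with *akr7a3*-/- eyes left of *akr7a3*+/+ eyes. Short lines are means (n = 6 eyes each). Every mutant eye is above every *akr7a3*+/+ eye in *mt-nd3* and *mt-co3*, and the mutant mean is below 100% in *mt-nd6* alone.

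Genes were assigned to complexes by symbol alone. Complex I, the entry point of electrons from NADH, had 6 of 39 tested nuclear subunit genes called lower and 0 called higher. By this rule the 39 include *ndufa4*, *ndufa4l*, *ndufa4l2a* and *ndufa4l2b*, although the NDUFA4 protein of mammals is now placed in complex IV. None of the *ndufa4* genes was called. Of these 39, 35 had a log2 fold change below 0, with a median of -0.18. The 6 called lower are 15.4% of the 39, beside 5.77% of all genes called lower. The called genes belong to different modules of the enzyme. *ndufb7*, *ndufb8* and *ndufb10* encode accessory subunits of the membrane arm, *ndufv2* an iron-sulfur subunit of the NADH-oxidising module, *ndufa5* a subunit of the peripheral arm, and *ndufa6* a subunit that binds the mitochondrial acyl carrier protein.

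*ndufb7* had the largest difference among the complex I subunits. It was 55.7, 63.9 and 75.6 FPKM (lowest, median and highest) in *akr7a3*-/- eyes and 72.3, 93.0 and 117 FPKM in *akr7a3*+/+ eyes, with a log2 fold change of -0.52 (SE 0.12, adjusted p 0.0153, limma). The genotypes overlapped. *ndufb8* was 68.9, 73.2 and 92.0 FPKM in mutant eyes and 87.7, 98.5 and 112 FPKM in *akr7a3*+/+ eyes, with a log2 fold change of -0.37 (SE 0.09, adjusted p 0.0182). The highest mutant eye reached into the range of the *akr7a3*+/+ eyes, and both genes kept their call when any 1 eye was left out.

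The other 4 called subunits of complex I were nearer to the threshold. *ndufa6* lay between 33.4 and 39.4 FPKM in *akr7a3*-/- eyes (median 37.5) and between 38.8 and 56.9 FPKM in *akr7a3*+/+ eyes (median 51.0), with a log2 fold change of -0.37 (SE 0.10, adjusted p 0.0283, limma). *ndufb10* lay between 62.6 and 87.9 FPKM in mutant eyes (median 76.8) and between 85.4 and 119 FPKM in *akr7a3*+/+ eyes (median 96.6), with -0.38 (adjusted p 0.0335). In each of these genes the overlap was narrow. *ndufa5* was 49.1 to 61.6 FPKM in mutant eyes and 59.5 to 90.9 FPKM in *akr7a3*+/+ eyes, with a log2 fold change of -0.35 (SE 0.10, adjusted p 0.0336), and *ndufv2* was 55.9 to 70.8 FPKM in mutant eyes and 67.4 to 84.9 FPKM in *akr7a3*+/+ eyes, with -0.26 (adjusted p 0.0483). These 4 lost their call in 6 (*ndufa6*), 8 (*ndufb10* and *ndufa5*) and 9 (*ndufv2*) of the 12 fits that left out 1 eye.

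The most abundant nuclear subunits of complex I did not pass. *NDUFB1*, a small membrane subunit gene, averaged 179 ± 8.86 FPKM in *akr7a3*-/- eyes and 170 ± 43.1 FPKM in *akr7a3*+/+ eyes, with a log2 fold change of 0.11 (SE 0.14, adjusted p 0.672, limma). *ndufb9*, another subunit gene of the membrane arm, averaged 114 ± 11.1 FPKM in mutant eyes and 123 ± 7.03 FPKM in *akr7a3*+/+ eyes, with -0.11 (adjusted p 0.373). The genotypes overlapped in both genes. The genes *ndufb4*, with at most 4 reads in any eye, and *ndufs1*, with at most 1, were below the filter and were not tested, so that *ndufs1*, which encodes a large iron-sulfur subunit, could not be compared at this depth.

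Of 8 complex I assembly factors, 2 fell and 0 rose, which is 25% called lower beside 5.77% of all genes. In both no mutant eye reached an *akr7a3*+/+ eye. *ndufaf6*, needed for assembly of an early intermediate, was 6.52, 7.52 and 8.49 FPKM (lowest, median and highest) in *akr7a3*-/- eyes and 9.39, 10.1 and 12.5 FPKM in *akr7a3*+/+ eyes. Its log2 fold change was -0.43 (SE 0.08, adjusted p 0.00483, limma) and it kept the call when any 1 eye was left out. *ndufaf5*, an assembly factor with a methyltransferase-like fold, was 12.8, 14.3 and 15.1 FPKM in mutant eyes and 15.5, 15.97 and 18.7 FPKM in *akr7a3*+/+ eyes, with a log2 fold change of -0.22 (SE 0.06, adjusted p 0.0424). This call was lost in 9 of the 12 fits, and the 4 complex II assembly factors tested did not pass. Over all genes tested, 3.06% had mutant values wholly below the *akr7a3*+/+ values. Of the 104 nuclear members tested, 4 did so, which is a similar share. They were *ndufaf5*, *ndufaf6* and both ATP synthase inhibitors.

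Complex II, which oxidises succinate and also works in the tricarboxylic acid cycle, had both of its catalytic subunit genes called lower. These 2 are 40% of its 5 subunit genes tested, beside 5.77% of all genes called lower. The median log2 fold change of the 5 was -0.16. *sdha*, the flavoprotein, was 48.7, 53.6 and 69.1 FPKM (lowest, median and highest) in *akr7a3*-/- eyes and 64.5, 74.8 and 84.9 FPKM in *akr7a3*+/+ eyes, with a log2 fold change of -0.41 (SE 0.10, adjusted p 0.0157, limma). *sdhb*, the iron-sulfur subunit, was 20.1, 25.6 and 31.2 FPKM in mutant eyes and 28.2, 34.0 and 41.3 FPKM in *akr7a3*+/+ eyes, with a log2 fold change of -0.45 (SE 0.11, adjusted p 0.0223). In both genes the highest mutant eyes lay within the *akr7a3*+/+ range, and *sdhb* lost its call only without *akr7a3*-/- eye 9. The membrane anchor gene *sdhc* averaged 51.8 ± 3.56 FPKM in mutant eyes and 57.1 ± 4.42 FPKM in *akr7a3*+/+ eyes and did not pass (log2 fold change -0.14, adjusted p 0.206). The summed level of the 5 subunit genes was 148 to 182 FPKM in mutant eyes and 182 to 220 FPKM in *akr7a3*+/+ eyes, where only mutant eye 7 came above the lowest *akr7a3*+/+ eye.

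Complex III, which passes electrons from ubiquinol to cytochrome c, had 0 of 9 nuclear subunit genes past the adjusted threshold in either direction (limma). At an unadjusted p under 0.05, 5 of 9 were lower and 0 were higher. The 5 are 55.6%, beside 13.4% of all genes lower at this threshold. Voom called 0 of the 9 as well. The median log2 fold change was -0.22. The core protein gene *uqcrc1* averaged 94.4 ± 11.9 FPKM in *akr7a3*-/- eyes and 98.7 ± 16.8 FPKM in *akr7a3*+/+ eyes, with -0.05 (adjusted p 0.823), and the hinge protein gene *uqcrh* averaged 92.4 ± 6.77 FPKM in mutant eyes and 110 ± 17.9 FPKM in *akr7a3*+/+ eyes, with -0.24 (adjusted p 0.149). The gene just outside the threshold was *uqcrfs1*, the Rieske iron-sulfur protein, with a log2 fold change of -0.29 (SE 0.10, adjusted p 0.0701). *uqcrb* rested on 7 to 33 reads per eye.

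Complex IV, the oxidase that transfers electrons to oxygen, had 3 of 20 nuclear subunit genes called lower and 0 called higher, with a median log2 fold change of -0.13. The 3 are 15% of the 20, beside 5.77% of all genes called lower. The *ndufa4* genes, counted in complex I by symbol, are not among these 20. The 2 largest differences were in subunit genes that have a paralogue. *cox6a2*, the isoform found in heart and skeletal muscle of mammals, was 16.4, 22.03 and 35.2 FPKM (lowest, median and highest) in *akr7a3*-/- eyes and 23.98, 37.3 and 41.8 FPKM in *akr7a3*+/+ eyes, with a log2 fold change of -0.64 (SE 0.17, adjusted p 0.0313, limma). Mutant eye 7 was the highest mutant eye and *akr7a3*+/+ eye 6 the lowest of its genotype, as they were in the muscle sum, at 1283 and 1128 FPKM. At the other ends the eyes differed. Mutant eye 5 was the lowest in *cox6a2* and mutant eye 9 in the muscle sum. *akr7a3*+/+ eye 7 was the highest in *cox6a2* and *akr7a3*+/+ eye 3 in the muscle sum. Over the 18 called nuclear members, mutant eye 7 was the highest mutant eye in 10 and *akr7a3*+/+ eye 6 the lowest of its genotype in 9. The part of muscle in *cox6a2* was not tested. The paralogue *cox6a1* averaged 43.9 ± 6.34 FPKM in mutant eyes and 48.7 ± 5.99 FPKM in *akr7a3*+/+ eyes and did not pass (-0.15, adjusted p 0.416). The difference between the paralogues was not tested.

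*cox6b1* encodes a subunit on the side of the intermembrane space. It was 10.01, 12.03 and 13.8 FPKM (lowest, median and highest) in *akr7a3*-/- eyes and 12.3, 19.9 and 28.1 FPKM in *akr7a3*+/+ eyes, with a log2 fold change of -0.68 (SE 0.18, adjusted p 0.0296, limma). The *akr7a3*+/+ eyes spread more widely than the mutant eyes, and eyes 2 and 4 of that genotype lay within the mutant range. The paralogue *cox6b2* was higher expressed, at 102 ± 11.2 FPKM in mutant eyes and 103 ± 10.5 FPKM in *akr7a3*+/+ eyes, with a log2 fold change of -0.02 (SE 0.09, adjusted p 0.916). *cox6c*, a small membrane subunit gene, was 159 to 175 FPKM in mutant eyes and 172 to 244 FPKM in *akr7a3*+/+ eyes, with -0.28 (adjusted p 0.0357), and lost its call in 9 of the 12 fits that left out 1 eye. The most abundant nuclear subunits of the complex, *cox4i1* at 244 ± 26.7 FPKM in mutant eyes and 268 ± 17.8 FPKM in *akr7a3*+/+ eyes, and *cox7c* at 216 ± 5.54 FPKM in mutant eyes and 227 ± 28.6 FPKM in *akr7a3*+/+ eyes, did not pass, with adjusted p of 0.315 and 0.701.

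The lowest p-values of all members were found for the inhibitors of ATP synthase. *atp5if1a* and *atp5if1b* are paralogues that encode the inhibitory factor, which binds the enzyme when the proton gradient is lost and blocks hydrolysis of ATP. *atp5if1a* was 32.9, 35.5 and 39.0 FPKM (lowest, median and highest) in *akr7a3*-/- eyes and 48.4, 54.2 and 57.6 FPKM in *akr7a3*+/+ eyes. Its mean was 33.0% lower in mutant eyes, with a log2 fold change of -0.57 (SE 0.06, adjusted p 0.000136, limma). *atp5if1b* was 62.0, 65.6 and 77.7 FPKM in mutant eyes and 88.4, 104 and 114 FPKM in *akr7a3*+/+ eyes, with a mean that was 34.0% lower and a log2 fold change of -0.59 (SE 0.08, adjusted p 0.000476). In both genes every mutant eye lay below every *akr7a3*+/+ eye, and the call was kept when any 1 eye was left out, with log2 fold changes of -0.60 to -0.55 for *atp5if1a* and -0.64 to -0.56 for *atp5if1b*.

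Of 17 nuclear subunit genes of ATP synthase, 3 fell and 0 rose, with a median log2 fold change of -0.15. The 3 are 17.6% of the 17, beside 5.77% of all genes called lower. *atp5meb*, a copy of the membrane subunit e that takes part in dimer formation, was 109, 112 and 134 FPKM (lowest, median and highest) in *akr7a3*-/- eyes and 123, 153 and 162 FPKM in *akr7a3*+/+ eyes, with a log2 fold change of -0.34 (SE 0.08, adjusted p 0.0210, limma). All mutant eyes but eye 7 lay below the *akr7a3*+/+ eyes. The other copy, *atp5mea*, averaged 81.3 ± 19.5 FPKM in mutant eyes and 77.0 ± 34.6 FPKM in *akr7a3*+/+ eyes and did not pass (0.19, adjusted p 0.747), and without *akr7a3*+/+ eye 4 its log2 fold change was -0.049. How reads that map to several genes were counted is not given, so that values of similar copies are uncertain.

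*atp5pf*, the coupling factor of the peripheral stalk, was 40.5 to 49.5 FPKM in *akr7a3*-/- eyes and 46.1 to 64.0 FPKM in *akr7a3*+/+ eyes, with a log2 fold change of -0.30 (SE 0.08, adjusted p 0.0262, limma). *atp5md*, a small membrane subunit gene, was 23.9 to 34.6 FPKM in mutant eyes and 31.7 to 46.0 FPKM in *akr7a3*+/+ eyes, with -0.39 (adjusted p 0.0436). The genotypes overlapped in both. The catalytic core did not pass: *atp5f1b* had a log2 fold change of -0.01 (SE 0.11, adjusted p 0.973) and the alpha subunit gene *atp5fa1* had -0.15 (SE 0.10, adjusted p 0.383), at 378 ± 45.2 FPKM in mutant eyes and 419 ± 48.6 FPKM in *akr7a3*+/+ eyes.

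**Figure D3:**
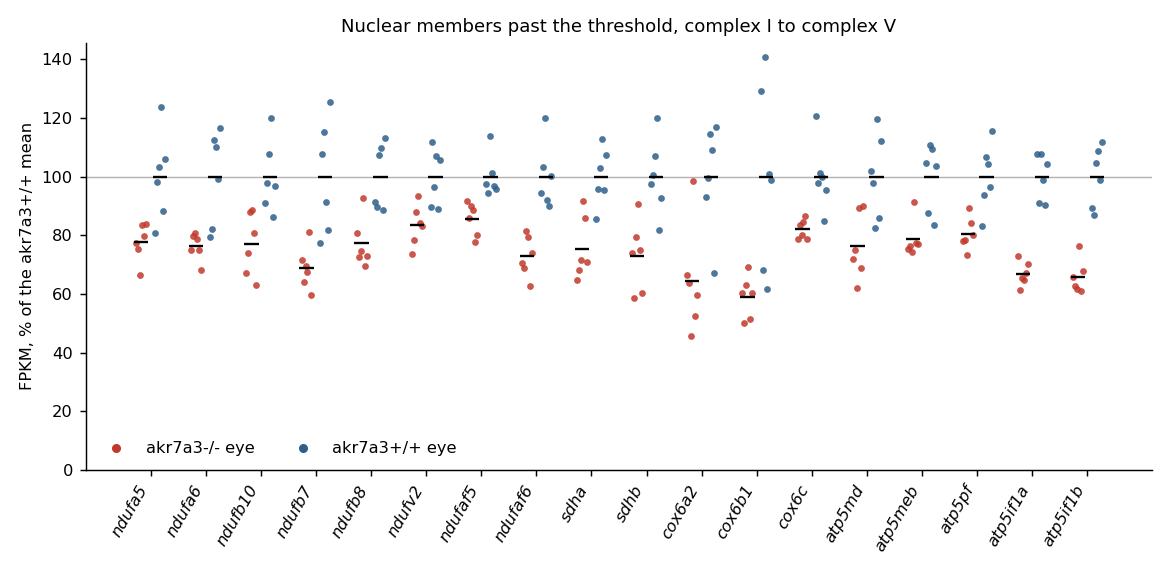
FPKM of the 18 nuclear members called lower in each eye, as a percentage of the *akr7a3*+/+ mean of that gene, ordered from complex I to complex V, with *akr7a3*-/- eyes left of *akr7a3*+/+ eyes. Short lines are means (n = 6 eyes each). No mutant eye reaches an *akr7a3*+/+ eye in *ndufaf5*, *ndufaf6*, *atp5if1a* and *atp5if1b*, and the spread is widest in *cox6a2* and *cox6b1*.

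Summed over its members, each genome overlapped between the genotypes. The nuclear sum was 6598, 7083 and 8139 FPKM (lowest, median and highest) in *akr7a3*-/- eyes and 7272, 7831 and 8734 FPKM in *akr7a3*+/+ eyes. The mitochondrial sum was 50167, 61497 and 68193 FPKM in mutant eyes and 46078, 50425 and 55976 FPKM in *akr7a3*+/+ eyes. Mutant eye 7 was the mutant eye with the highest nuclear sum and mutant eye 5 the one with the lowest mitochondrial sum. The ratio of the mitochondrial to the nuclear sum within an eye did not overlap, at 7.60 to 9.56 in mutant eyes and 5.62 to 7.01 in *akr7a3*+/+ eyes. The mitochondrial genes held 5.16% to 6.87% of the reads in mutant eyes and 4.68% to 5.66% in *akr7a3*+/+ eyes.

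FPKM values are shares of a library, so that more reads on mitochondrial genes lower all other values. When each eye was scaled to its reads outside the mitochondrial genes, 15 nuclear members were called lower and 1 mitochondrial member was called higher. All 16 were among the 19 called before. They are 13.7% of the members tested, beside 11.5% of all genes called, and the 15 are 12.8%, beside 5.19% of all genes called lower. With median-of-ratios scaling 14 members were called, 13 lower and 1 higher, also all among the 19, while 12.5% of all genes were called. The 14 are 12% of the members tested, a share near that of all genes, and the 13 are 11.1%, beside 5.78% of all genes called lower.

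**Figure D4:**
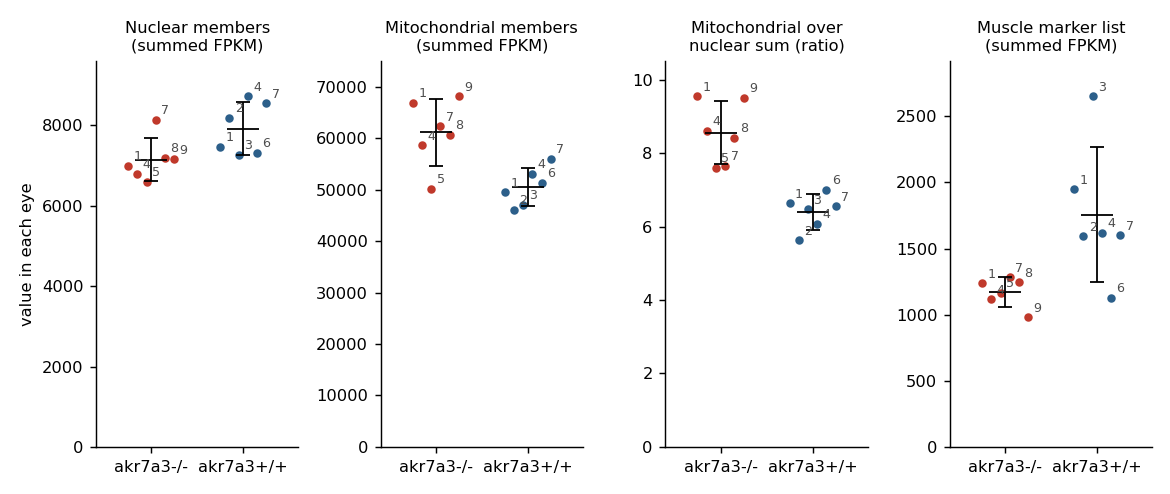
Summed FPKM of the nuclear members and of the mitochondrial members, their ratio, and the summed FPKM of the muscle marker list in each eye, with the eye's number beside each point, the mean and the SD (n = 6 eyes each). The ratio is at least 7.60 in every mutant eye and at most 7.01 in *akr7a3*+/+ eyes, while the other 3 quantities overlap.

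In the 18 called nuclear members, mutant eye 7 was the highest of the mutant eyes in 10 genes, and *akr7a3*+/+ eye 6 was the lowest of its genotype in 9. The opposite extremes were more spread out. The lowest mutant eye was eye 5 in 5 genes, eye 8 in 4 and eyes 1, 4 and 9 in 3 each, and the highest *akr7a3*+/+ eye was eye 7 in 6 genes and eyes 3 and 4 in 5 each. Without mutant eye 7, 24 members were called, 23 of them lower. The 24 are 20.5% of the members tested and the 23 are 19.7%. Of all genes, 9.87% were called in that fit and 5.05% were called lower. Over the nuclear members the spread between eyes was of similar size in both genotypes. The median coefficient of variation was 11.9% in mutant eyes and 12.4% in *akr7a3*+/+ eyes. Over the mitochondrial members it was 12.6% in mutant eyes and 9.46% in *akr7a3*+/+ eyes. The mitochondrial sum spread more widely in mutant eyes, with an SD of 6506 FPKM against 3729 FPKM in *akr7a3*+/+ eyes. Of the 103 members with a chromosome in a table of another zebrafish assembly, 3 lay on the chromosome of *akr7a3* and 0 of these were called by limma or by voom. Of the 3, *ndufa11* had an unadjusted p of 0.0378 and a log2 fold change of -0.21.

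Genes outside the set that belong to the same pathway were counted from lists written by symbol. Over all genes tested, 11.5% were called by limma, 5.77% lower and 5.78% higher. Of 31 further assembly and maturation factors, 5 fell and 0 rose, with a median log2 fold change of -0.13. They included *cox17*, which carries copper to complex IV, at 10.4 ± 0.44 FPKM in *akr7a3*-/- eyes and 13.3 ± 0.86 FPKM in *akr7a3*+/+ eyes (-0.34, adjusted p 0.00180, limma), and *coa6*, another complex IV assembly factor, at 1.04 ± 0.34 FPKM in mutant eyes and 1.97 ± 0.34 FPKM in *akr7a3*+/+ eyes (-0.70, adjusted p 0.0106). Of 15 genes for cytochrome c, carriers and uncouplers, 2 fell and 0 rose. Of all genes, 5.77% were called lower and 11.5% in either direction. Both encode channels of the outer membrane, *vdac1*, at 140 ± 5.39 FPKM in mutant eyes and 174 ± 12.9 FPKM in *akr7a3*+/+ eyes (-0.31, adjusted p 0.00665), and *vdac3*, at 78.5 ± 5.61 FPKM in mutant eyes and 102 ± 11.3 FPKM in *akr7a3*+/+ eyes (-0.37, adjusted p 0.00984).

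Of 16 genes that replicate and express mitochondrial DNA, 1 rose and 1 fell, a share near the 11.5% of all genes called. The polymerase gene *polg* averaged 6.81 ± 0.23 FPKM in *akr7a3*-/- eyes and 4.99 ± 1.084 FPKM in *akr7a3*+/+ eyes (0.44, adjusted p 0.0346, limma), and the helicase gene *twnk* averaged 1.80 ± 0.10 FPKM in mutant eyes and 2.37 ± 0.24 FPKM in *akr7a3*+/+ eyes (-0.32, adjusted p 0.0177). Of 8 regulators of mitochondrial genes 1 rose and 0 fell, beside 5.78% of all genes called higher and 11.5% called in either direction. The gene that rose was *esrra*, a nuclear receptor that binds promoters of respiratory chain genes in mammals. It averaged 38.2 ± 4.84 FPKM in mutant eyes and 25.4 ± 3.12 FPKM in *akr7a3*+/+ eyes (0.58, adjusted p 0.00193, limma). The tricarboxylic acid cycle list had 20 genes tested, of which 1 rose and 4 fell, beside 5.78% of all genes called higher and 5.77% called lower. The oxoglutarate dehydrogenase-like gene *ogdhl* averaged 18.7 ± 2.295 FPKM in mutant eyes and 12.9 ± 2.65 FPKM in *akr7a3*+/+ eyes (0.52, adjusted p 0.0155), and *pdhx*, a structural component of pyruvate dehydrogenase, averaged 14.1 ± 1.16 FPKM in mutant eyes and 17.4 ± 1.48 FPKM in *akr7a3*+/+ eyes (-0.29, adjusted p 0.0194).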

How the data were processed

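The reads of 12 eyes had been aligned by the authors to GRCz11 (HISAT2), and gene counts from featureCounts 2.0.3 were converted to the deposited FPKM values. Settings for strand and multiply mapped reads and the annotation release are not given in the sources used here. Genotypes were taken from the labels. With limma 3.58.1 (R 4.3.3), a variance trend and genotype alone, log2(FPKM + 0.5) was tested in 18473 genes, those that reached 0.5 FPKM in 6 or more eyes, and the fits that left out an eye used the same genes. The steps were tested on simulated data. Fold changes on this scale understate the change of low genes. Whole reads were recovered for 24679 of 24681 genes above 0 (within 0.02 reads). The members and gene lists were chosen with earlier results of these data known. Named are *akr7a3*, called members, mitochondrial members, the 2 highest nuclear subunits of each complex, paralogues of called members, and the 2 genes with the lowest p of those called in each pathway list. Members just outside the threshold, those below the filter and genes of the marker lists were described apart from this rule. The alternatives were pseudocounts of 0.1 and 1, no filter, median-of-ratios scaling, scaling to reads outside mitochondrial genes, a replicate block, leaving out each eye and, chosen after seeing the data, voom on recovered reads and no variance trend. Chromosomes came from a table of GRCz12tu by symbol and served only to tell which genes share one. Larvae and livers are not analysed here.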

Additional observations from a re-analysis of the deposited data

Results flagged for a closer look

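In 92 sets of 6 eyes (each named member, both sums and their ratio, within 1 genotype), the highest or lowest eye was set against the others by Dixon's ratio, and 6 exceeded its critical value. Chance alone marks about 1 in 20 such sets. In *akr7a3*-/- eye 7, *cox4i1* was high at 295 FPKM, *atp5fa1* at 465 FPKM and *atp5meb* at 134 FPKM. In *akr7a3*-/- eye 5, *mt-nd2* was low at 2014 FPKM and *mt-atp6* at 5398 FPKM. In *akr7a3*+/+ eye 3, *ndufaf5* was high at 18.7 FPKM. Mutant eye 7 also had the highest nuclear sum of the mutant eyes, at 8139 FPKM, and mutant eye 5 the lowest mitochondrial sum, at 50167 FPKM.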

How the results depend on the processing

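The medians of the nuclear members, the mitochondrial members and the nuclear subunits of each complex kept their sign under every alternative run, and changes of pseudocount left all 19 calls in place. Without a filter 16 members were called, all among the 19, which is 13.4% of the members beside 7.8% of all genes. Without a variance trend 19 members were called (16 of them shared), and with voom on recovered reads 20 (17 shared). These are 16.2% and 17.1% of the members, beside 11.3% and 11.5% of all genes. Members called higher numbered 0 without a filter, 4 without a variance trend and 4 with voom. In fits that left out 1 eye, 1518 to 2029 genes were called in all, 9 to 24 members, 9 to 23 of them lower and 0 to 3 higher, and the *akr7a3* log2 fold change ran from -1.65 to -1.495. In these fits 4 values that were not called changed sign: *uqcrc1* ran from -0.13 to 0.0023, *cox6b2* from -0.062 to 0.020, *atp5f1b* from -0.063 to 0.029 and *atp5mea* from -0.049 to 0.34. Scaling to reads outside the mitochondrial genes gave 0.00848 for *atp5f1b*. The cause of these changes was not tested.

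Replicate numbers 1, 4 and 7 occur in both genotypes, and in a fit with the number as a replicate block the difference rests on these 6 eyes. It called 1 gene of all, 0 members, 0 lower and 0 higher, and *akr7a3* had a log2 fold change of -1.38 (adjusted p 0.136, limma). The deviations of same-numbered eyes correlated at 0.08, -0.20 and 0.07, and 1 of the 3 numbers was its own best partner, so that the numbers were not read as pairs. Why *uqcrb* has few reads was not tested.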
